A study of Mus musculus with 16 samples.

Results

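The 34 lysosome and autophagy genes described here were taken by symbol from a read-count table of 16 mouse livers, and all 34 were found among its 53801 gene IDs and passed the filter on low counts. They are 7 proteases, 6 glycosidases, 5 genes of lysosomal lipid handling, 3 membrane proteins, 5 genes of the proton pump, 1 transcription factor and 7 autophagy genes. The livers come from mice with a liver-specific knockout of Degs1, which encodes the dihydroceramide desaturase that makes ceramide from dihydroceramide, and from control mice, each on a high-fat diet or on normal chow. There were 4 high-fat knockouts, 4 high-fat controls, 4 chow knockouts and 4 chow controls, each liver with its own animal number. The sources used here do not give the promoter that drives the deletion, the strain, sex and age of the mice, or the length and composition of the diet. The animal numbers of the 4 groups do not overlap, so anything that goes with them cannot be told apart from genotype and diet.

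Lysosomes are acidic organelles in which hydrolases break down proteins, glycans, lipids and glycogen delivered by endocytosis or autophagy. The proton pump acidifies the lumen, and activator proteins such as saposins and the GM2 activator present sphingolipids to the enzymes that cut their sugars off. In autophagy, a membrane decorated with proteins of the LC3 and GABARAP families closes around cytoplasm, lipid droplets or mitochondria and fuses with the lysosome. Many of these genes carry in their promoters a palindrome, the CLEAR element, which the transcription factor TFEB binds. In the liver, this system supplies amino acids and fatty acids during fasting and also degrades glycogen and ceramide-containing lipids.

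The CLEAR core was searched as TCACGTGA, and the shorter E-box inside it as CACGTG. Both read the same on either strand, and every CLEAR core also counts as an E-box. The windows run from 250 bases before to 50 after each gene's start in RefSeq on GRCm38.p6, and 28 of the 34 genes were found there. Atp6v1b2, Atp6v1h, Becn1, Ctsb, Ctsh and Npc1 were not. The CLEAR core was found for 6 of the 28 genes (21.4%), against 6.59% of the 91 found there among the other lysosome and autophagy genes described further on and 1.12% of the 27025 genes in the table. An E-box was found for 13 of them (46.4%), against 22% of the same 91 genes and 8.09% of all genes. The following 30-base stretches, 5′ to 3′ on the gene's strand, are shown because they hold a CLEAR core of each of the 6 genes and the E-box of Gaa, a gene that fell with diet. The motif is in capitals, and Ctsa and Gla each hold another core that is not shown.
Ctsd: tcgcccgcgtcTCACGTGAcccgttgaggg
Ctsa: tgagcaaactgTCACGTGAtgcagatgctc
Atp6v0d1: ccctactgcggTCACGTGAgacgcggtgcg
Atp6v1a: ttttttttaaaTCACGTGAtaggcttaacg
Mcoln1: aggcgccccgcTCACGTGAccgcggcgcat
Gla: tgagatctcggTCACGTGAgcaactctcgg
Gaa: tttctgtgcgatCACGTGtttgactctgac
The first 6 hold the CLEAR core. The Gaa stretch holds an E-box with the first outer base of the core, T, but not the last, A. They lie at chr7:142387908-142387937 (minus strand) for Ctsd, chr2:164833749-164833778 (plus) for Ctsa and chr8:105566050-105566079 (minus) for Atp6v0d1. The others lie at chr16:44139373-44139402 (minus) for Atp6v1a, chr8:3500462-3500491 (plus) for Mcoln1, chrX:134601182-134601211 (minus) for Gla and chr11:119267811-119267840 (plus) for Gaa. A match describes these letters and is not shown to be a bound site.

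Gm2a and Scpep1, which were lower on the high-fat diet in both genotypes, had neither motif in their windows. The 100 bases before their RefSeq starts are shown for comparison, all in lower case because there is no match to mark.
Gm2a: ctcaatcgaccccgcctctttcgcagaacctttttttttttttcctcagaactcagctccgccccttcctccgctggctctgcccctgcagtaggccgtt
Scpep1: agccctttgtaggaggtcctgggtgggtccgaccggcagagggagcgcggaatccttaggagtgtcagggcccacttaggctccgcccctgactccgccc
These stretches lie at chr11:55097885-55097984 on the plus strand for Gm2a and at chr11:88955443-88955542 on the minus strand for Scpep1. Their GC content is 56% for Gm2a and 67% for Scpep1.

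Total counts ran from 11938596 to 23250885 per liver, and 32 of the 34 genes had at least 100 counts in every liver. Degs1 had 41.6, 28.1, 26.1 and 29.2 reads scaled by library size (CPM) in high-fat knockouts, against 60.2, 62.2, 101 and 70.3 CPM in high-fat controls, and 39.3, 39.3, 37.4 and 35.9 CPM in chow knockouts, against 85.5, 80.4, 87.9 and 84.9 CPM in chow controls. The groups did not overlap on either diet. Of the marker lists, all 12 macrophage and all 7 hepatocyte markers were detected, none at 0 in any liver. One library stood apart from the rest of its group. High-fat control 3 had 0.0218% of its counts on sense-intronic and unconfirmed transcripts, taken here as a measure of unspliced RNA, and 179.6 CPM of the nuclear RNA Malat1. The other high-fat controls had 0.0512% to 0.164% and 1021 to 4028 CPM. Across the groups, the unspliced share was 0.162% to 0.191% in high-fat knockouts, 0.0218% to 0.164% in high-fat controls, 0.0463% to 0.0878% in chow knockouts and 0.0263% to 0.0411% in chow controls. It did not overlap between high-fat and chow knockouts, nor between chow knockouts and chow controls. High-fat knockouts and high-fat controls barely overlapped. In these comparisons, a fit that includes the share cannot tell it apart from diet or genotype. In bulk liver, fewer cells of a type and less RNA per cell cannot be told apart.

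To compare levels between genes, CPM was divided by the exon length in kilobases (FPKM, averaged over the 16 livers). Lamp1, the heavily glycosylated protein that lines the lysosomal membrane, was highest at 233 FPKM. It was followed by the saposin precursor Psap at 177 FPKM, the GABARAP family gene Gabarapl1 at 134 FPKM, the cysteine protease Ctsz at 120.2 FPKM and the cargo receptor Sqstm1 at 117 FPKM. At the low end were Mcoln1, the lysosomal calcium channel, at 2.88 FPKM, the galactosidase Gla at 2.52 FPKM and the regulator Tfeb at 1.16 FPKM. Tfeb was thus the lowest of the 34. Some levels rest on overlapping gene models, since the sources used here do not say whether reads were counted by strand. The overlapping gene had 69.8% as many counts as Map1lc3b (Zcchc14), 42.8% as many as Ctsa (Pltp), 24.9% as many as Glb1 (Tmppe, on the same strand), 23.4% as many as Ctsb (Fdft1) and 16% as many as Ctsz (Nelfcd). Gm2a and Gaa have no overlapping gene in the annotation, and the antisense gene over Scpep1 held a single read.

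**Figure D1:**
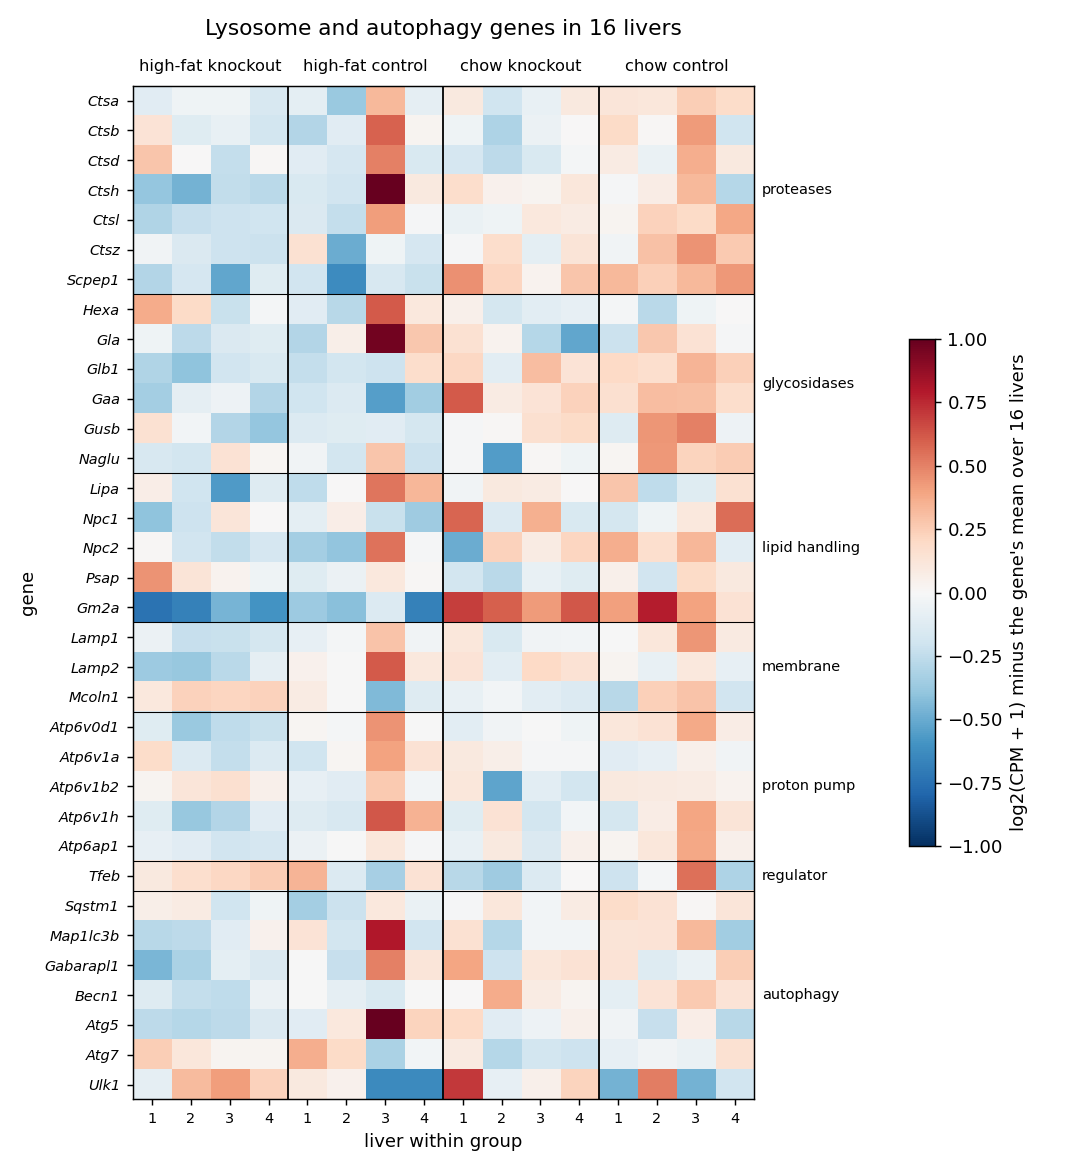
Each row is a gene, grouped by role, and each column a liver; colour gives log2(CPM + 1) minus the gene's mean over the 16 livers, capped at 1 in either direction. The Gm2a row is below its mean in all 8 high-fat livers and above it in all 8 chow livers, and high-fat control 3 is above the mean for most genes.

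Summed over the 34 genes, the livers held 5075 to 5466 CPM in high-fat knockouts, 5231 to 7466 CPM in high-fat controls, 5417 to 6053 CPM in chow knockouts and 5943 to 6656 CPM in chow controls. The top of the high-fat control range is control 3, and the other 3 livers of that group ended at 5674 CPM. For each liver, the median over the 34 genes of the deviation from the gene's mean over all livers was -0.20 to -0.086 (log2) in high-fat knockouts and 0.027 to 0.27 in chow controls. High-fat control 3 was at 0.28, and the other high-fat controls at -0.13 to -0.012. Chow knockouts were at -0.064 to 0.069, so every high-fat knockout lay below every chow liver. Over all 14351 genes tested, the same median lay between -0.054 and 0.013 in every liver.

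The high-fat diet was first compared with chow within knockouts. Of the 34 genes, 3 fell and 0 rose (edgeR quasi-likelihood test, Benjamini-Hochberg adjusted p under 0.05 over all genes). They were Gm2a, Scpep1 and Gaa. Over all genes tested, 5.35% fell and 5.21% rose, so the 3 of 34 that fell (8.82%) is not far from that background. Gm2a encodes the GM2 activator, the protein that lifts GM2 ganglioside out of the membrane for hexosaminidase. It had 65.0, 68.0, 79.0 and 71.7 CPM in high-fat knockouts, against 177, 165, 147 and 169 CPM in chow knockouts. The highest high-fat liver was well below the lowest chow liver, with averages of 70.9 ± 6.05 CPM in high-fat knockouts and 165 ± 12.6 CPM in chow knockouts (SD, n = 4 each). The difference was significant (log2 fold change -1.21 with SE 0.15, adjusted p = 0.000451 by edgeR).

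Scpep1, a serine carboxypeptidase, had 30.2, 33.0, 25.6 and 34.0 CPM in high-fat knockouts, against 51.3, 43.2, 38.1 and 45.3 CPM in chow knockouts (log2 fold change -0.53 with SE 0.14, adjusted p = 0.0209 by edgeR). Gaa, the acid glucosidase that breaks down lysosomal glycogen, had 68.3, 81.2, 83.5 and 70.7 CPM in high-fat knockouts, against 133, 91.8, 95.5 and 102 CPM in chow knockouts (log2 fold change -0.47 with SE 0.14, adjusted p = 0.0338 by edgeR). The groups did not overlap for either gene. Chow knockout 1 was the highest chow knockout for all 3. Without it, Gm2a had a log2 fold change of -1.17 (adjusted p = 0.00142), Scpep1 -0.45 (0.0507) and Gaa -0.34 (0.0858), all by edgeR, so the Scpep1 and Gaa calls were lost. Of the 16 livers left out in turn, 6 ended the Scpep1 call (high-fat knockouts 1, 2 and 3 and chow knockouts 1, 2 and 4; log2 fold change -0.59 to -0.45 over the 16 fits). Likewise 6 ended the Gaa call (high-fat knockouts 1 to 4 and chow knockouts 1 and 4; -0.52 to -0.34). None ended the Gm2a call (-1.26 to -1.16). Leaving out high-fat control 3, which is in neither group, gave 6 calls of the 34, with Glb1, Ctsh and Lamp2 added, all lower. The share of all genes called in that fit is not given here.

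**Figure D2:**
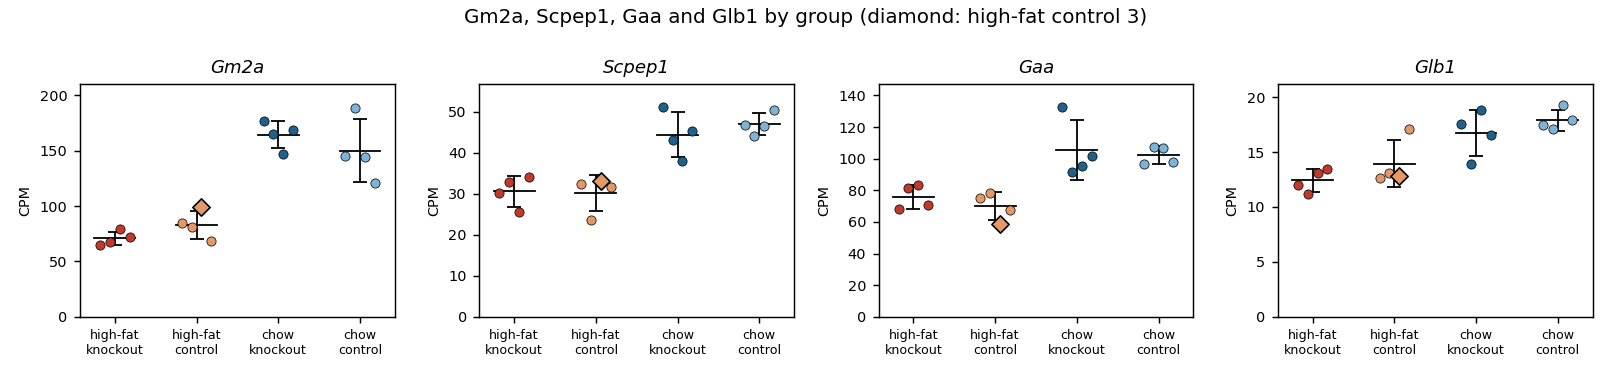
Points are single livers in CPM, with the group mean and SD (n = 4 each) as bars; the diamond marks high-fat control 3. For Gm2a, Scpep1 and Gaa, every high-fat liver of a genotype lies below every chow liver of that genotype; for Glb1 this holds in knockouts.

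The next genes in order of p did not pass. Glb1, the beta-galactosidase, had 12.01, 11.2, 13.1 and 13.5 CPM in high-fat knockouts, against 17.6, 13.9, 18.8 and 16.6 CPM in chow knockouts, with no overlap (log2 fold change -0.43 with SE 0.14, adjusted p = 0.0558 by edgeR). Becn1, a subunit of the lipid kinase complex that starts autophagosome formation, had 52.7, 48.5, 48.2 and 55.3 CPM in high-fat knockouts, against 57.8, 75.0, 60.9 and 58.8 CPM in chow knockouts, also with no overlap (log2 fold change -0.30 with SE 0.12, adjusted p = 0.0984 by edgeR). Lamp2, the second major membrane glycoprotein, had 485, 478, 518 and 587 CPM in high-fat knockouts, against 685, 581, 714 and 691 CPM in chow knockouts, and these overlapped (log2 fold change -0.37 with SE 0.14, adjusted p = 0.103 by edgeR). DESeq2 called Glb1 (adjusted p = 0.0293) in addition to the 3 genes.

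At an unadjusted p under 0.05, 7 of the 34 were lower (20.6%, against 14% of all genes) and 1 was higher (2.94%, against 14.8%). Across the list, 9 had every high-fat knockout below every chow knockout (26.5%, against 12.4% of all genes), and 3 had every one above (8.82%, against 12.1%). The 9 were Gm2a, Scpep1, Gaa, Glb1 and Becn1, described above, and Ctsh, Ctsl, Atp6v0d1 and Atg5. Ctsh, an aminopeptidase of the cathepsin family, had a log2 fold change of -0.43 (adjusted p = 0.227), the cysteine protease Ctsl -0.25 (0.244), the pump subunit Atp6v0d1 -0.19 (0.315) and the conjugation protein Atg5 -0.26 (0.407), by edgeR, and none of these 4 passed. The 3 that were higher without overlap were Psap, Mcoln1 and Tfeb. Psap had 659, 527, 495 and 469 CPM in high-fat knockouts, against 425, 401, 458 and 444 CPM in chow knockouts (log2 fold change 0.32 with SE 0.13, adjusted p = 0.123 by edgeR). Tfeb had 7.02, 7.41, 7.62 and 7.92 CPM in high-fat knockouts, against 5.17, 4.86, 5.80 and 6.49 CPM in chow knockouts (log2 fold change 0.42 with SE 0.22, adjusted p = 0.210 by edgeR), and Mcoln1 had a log2 fold change of 0.30 (adjusted p = 0.202). None of the 3 passed the test. The median log2 fold change over the 34 genes was -0.17, against 0.022 over all genes, and 25 of the 34 values were negative. With the unspliced share added to the model the median was 0.090 and 13 values were negative. Direction over the list turned in that fit. Gm2a (-1.15, edgeR adjusted p = 0.00385) and Gaa (-0.68, 0.0179) remained called and Scpep1 did not (-0.46, 0.0983). The share did not overlap between high-fat knockouts (0.162% to 0.191%) and chow knockouts (0.0463% to 0.0878%). That fit therefore cannot tell the share apart from the diet.

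By role, the medians on the high-fat diet in knockouts were -0.21 for proteases (5 of 7 negative), -0.11 for glycosidases (4 of 6) and -0.23 for lipid handling (4 of 5). They were -0.15 for membrane proteins (2 of 3), -0.13 for the pump (4 of 5) and -0.11 for autophagy genes (6 of 7). Lamp1 had -0.15 (adjusted p = 0.474), Sqstm1 -0.062 (0.774) and Map1lc3b, the LC3 gene, -0.11 (0.754), by edgeR. None of Lamp1, Sqstm1 and Map1lc3b passed the test. These are RNA levels, and lysosome or autophagosome content was not measured.

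Markers of several cell types moved with the diet in knockouts. The summed hepatocyte markers were 58697 to 80172 CPM in high-fat knockouts, against 114997 to 135630 CPM in chow knockouts, and 1 of 7, Alb, fell. The others were negative without passing, from Apoa1 (log2 fold change -0.70, edgeR adjusted p = 0.0541) to Asgr1 (-0.068, 0.847). The summed macrophage markers were 469 to 876 CPM in high-fat knockouts, against 427 to 698 CPM in chow knockouts, and 1 of 12, Cd68, rose. Of the macrophage markers that did not pass, Marco (log2 fold change -0.40, edgeR adjusted p = 0.676), Timd4 (-0.093, 0.897) and Vsig4 (-0.032, 0.956) were negative and the rest positive. Of the 6 markers of lipid-associated macrophages, 4 rose (Trem2, Gpnmb, Itgax and Mmp12), with sums of 48.1 to 172 CPM in high-fat knockouts and 62.2 to 84.7 CPM in chow knockouts. Cd9 (log2 fold change -0.84, edgeR adjusted p = 0.124) was negative and Spp1 (0.17, 0.787) positive, and neither passed. Of the 7 stellate cell markers 3 rose (Pdgfrb, Col1a1 and Col3a1), with sums of 476 to 723 CPM in high-fat knockouts and 463 to 479 CPM in chow knockouts. Rgs5 (log2 fold change -0.43, edgeR adjusted p = 0.0711) and Lrat (-0.26, 0.522) were negative. Des (0.17, 0.640) and Reln (0.090, 0.662) were positive, and none of these passed. Of the 6 lymphocyte and neutrophil markers tested 1 rose, Cd8a of cytotoxic T cells (log2 fold change 2.85, edgeR adjusted p = 0.0227), with sums over the list of 4.27 to 14.8 CPM in high-fat knockouts and 2.55 to 5.07 CPM in chow knockouts. Of the 2 adipocyte and pancreas markers tested 1 rose, Cfd (4.29, 0.0201), with sums of 16.01 to 39.9 CPM in high-fat knockouts and 12.3 to 21.9 CPM in chow knockouts. The part of these markers in the lysosomal values was not tested.

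In controls, the high-fat diet was compared with chow in 8 other livers, and the same 3 genes fell while 0 rose. Here 0.885% of all genes fell and 0.941% rose, against 8.82% of the 34 that fell. The 34 were chosen with earlier results of these data known, so this contrast is not a test of the list. Gm2a had 84.5, 81.3, 99.0 and 68.0 CPM in high-fat controls, against 145, 189, 144 and 121 CPM in chow controls. It averaged 83.2 ± 12.7 CPM in high-fat controls and 149.8 ± 28.4 CPM in chow controls (SD, n = 4 each), a significant difference (log2 fold change -0.85 with SE 0.15, adjusted p = 0.00738 by edgeR). Scpep1 had 32.4, 23.7, 33.0 and 31.6 CPM in high-fat controls, against 46.8, 44.1, 46.6 and 50.5 CPM in chow controls (log2 fold change -0.64 with SE 0.14, adjusted p = 0.0219 by edgeR). Gaa had 75.3, 78.6, 58.8 and 67.6 CPM in high-fat controls, against 96.8, 107, 107 and 97.7 CPM in chow controls (log2 fold change -0.54 with SE 0.14, adjusted p = 0.0471 by edgeR). In all 3 genes the highest high-fat control was below the lowest chow control.

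Without high-fat control 3 the 3 calls stood, with edgeR log2 fold changes of -0.94 for Gm2a (adjusted p = 0.00218), -0.69 for Scpep1 (0.00836) and -0.47 for Gaa (0.0374). Leaving out each of the 16 livers in turn ended the Gm2a call in 0 fits and the Scpep1 call in 4 (high-fat control 2 and chow controls 2, 3 and 4; edgeR adjusted p up to 0.0865). It ended the Gaa call in 14, all but those without high-fat control 3 or chow knockout 1 (up to 0.136). With only the 8 livers compared in the fit none passed, at adjusted p = 0.0786 for Gm2a, 0.123 for Scpep1 and 0.169 for Gaa. Over 27 alternatives, the Gaa call in controls stood in 6, the Scpep1 call in 22 and the Gm2a call in 26. In knockouts the numbers were 19 for Gaa, 19 for Scpep1 and 27 for Gm2a. The sign was the same for each gene in all 27 alternatives of both comparisons.

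**Figure D3:**
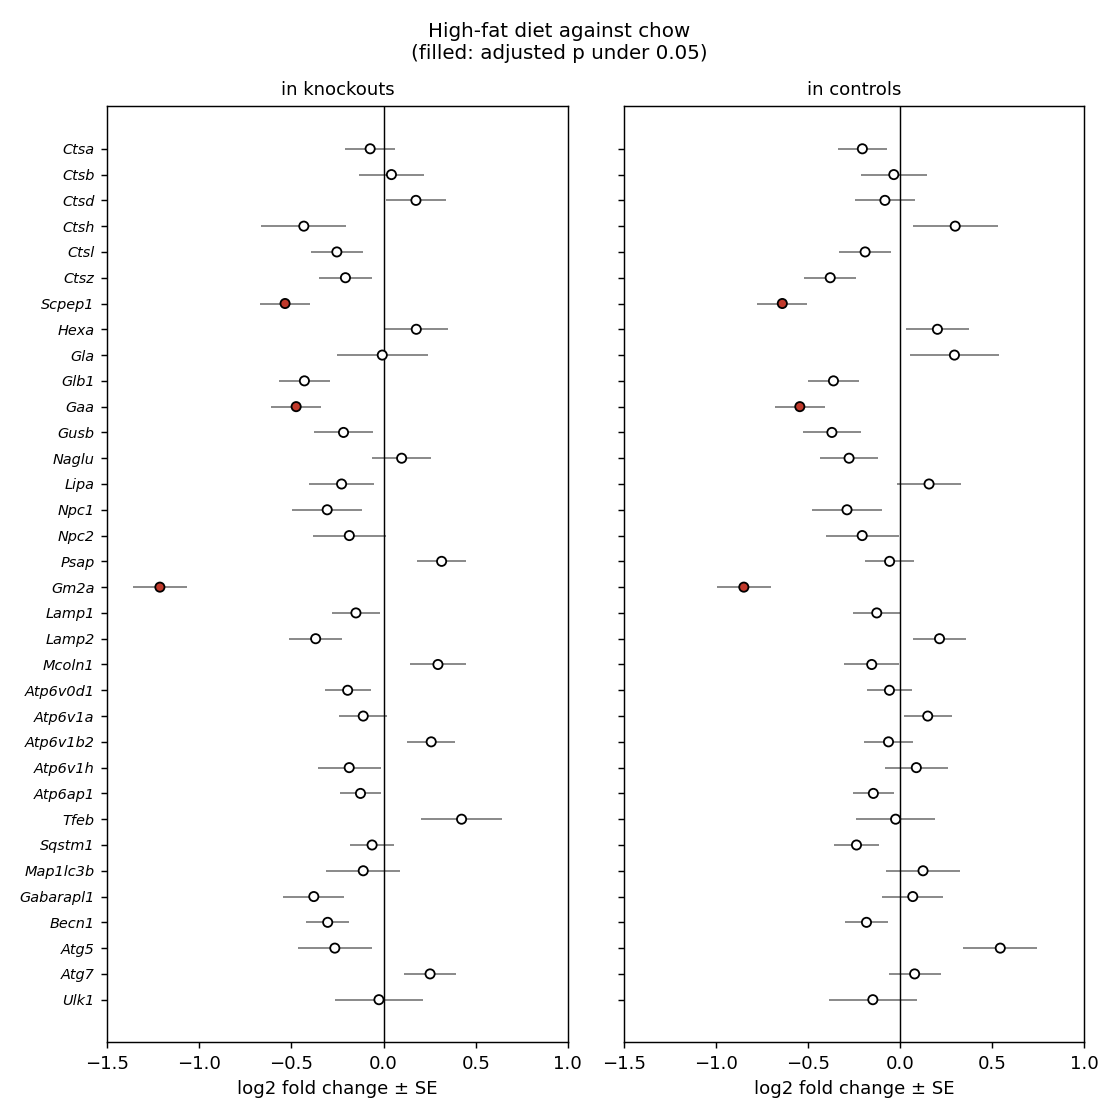
Log2 fold change of the high-fat diet over chow with its standard error for the 34 genes, in knockouts (left) and in controls (right); filled points have an edgeR adjusted p under 0.05. Gm2a, Scpep1 and Gaa are the filled points in both panels.

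The calls of the 2 genotypes were thus the same 3 genes of 3 in knockouts and of 3 in controls. Over all genes, 150 were called in both, which is 9.89% of the 1516 called in knockouts and 57.3% of the 262 called in controls. The same limit on the choice of the 34 holds for this contrast. The interaction of genotype and diet was not significant for Gm2a (log2 fold change -0.37 with SE 0.20, adjusted p = 0.516 by edgeR), Scpep1 (0.10, SE 0.19, adjusted p = 0.876) or Gaa (0.069, SE 0.19, 0.920). All 3 genes lie on chromosome 11, at 55098115 to 55113029 (Gm2a), 88924020 to 88955465 (Scpep1) and 119267887 to 119285454 (Gaa) on GRCm38, far apart from one another. The other 3 of the 34 on this chromosome are Naglu, Sqstm1 and Becn1. The signs of the 3 called genes follow from their calls. With diet in controls the other 3 were negative (log2 fold change -0.28 for Naglu, -0.24 for Sqstm1 and -0.18 for Becn1). In knockouts Naglu was positive (0.098) and Sqstm1 (-0.062) and Becn1 (-0.30) were negative. None of these values passed. The median of the 1111 tested genes of chromosome 11 was 0.049 in knockouts and -0.023 in controls.

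The next genes in controls did not pass. Atg5, part of the conjugation machinery that attaches LC3 to membranes, had 53.4, 62.4, 128 and 67.7 CPM in high-fat controls, against 56.4, 49.2, 60.5 and 47.6 CPM in chow controls (log2 fold change 0.54 with SE 0.20, adjusted p = 0.171 by edgeR). The value of 128 is high-fat control 3. Ctsz had 190.4, 121, 166 and 152 CPM in high-fat controls, against 167, 210.2, 234 and 206 CPM in chow controls (log2 fold change -0.38 with SE 0.14, adjusted p = 0.178 by edgeR). Glb1 had 12.6, 13.1, 12.9 and 17.1 CPM in high-fat controls, against 17.4, 17.1, 19.3 and 17.9 CPM in chow controls (log2 fold change -0.36 with SE 0.14, adjusted p = 0.188 by edgeR). In each of these the groups overlapped.

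Over the 34 genes in controls, the median log2 fold change was -0.10, against 0.0098 over all genes, with 23 negative values. Leaving out high-fat control 3 gave -0.17, and a fit that includes the unspliced share gave -0.023. That share was above every chow control (0.0263% to 0.0411%) in all high-fat controls but control 3 (0.0218%). The ranges thus overlap only through that liver, and this fit can hardly tell the share apart from the diet. At an unadjusted p under 0.05, 6 were lower (17.6%, against 7.09% of all genes) and 1 was higher (2.94%, against 9.98%). Without overlap, 3 genes were lower (8.82%, against 4.01% of all genes) and 0 higher (against 3.21%). Tfeb had a log2 fold change of -0.023 (edgeR adjusted p = 0.976), Lamp1 -0.13 (0.690), Sqstm1 -0.24 (0.335) and Map1lc3b 0.13 (0.815). No marker of the 8 cell-type lists passed in controls, where 7 hepatocyte markers summed to 77886 to 114791 CPM in high-fat controls, against 104820 to 123484 CPM in chow controls. The 12 macrophage markers summed to 412 to 976 CPM in high-fat controls and 411 to 1088 CPM in chow controls.

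Loss of Degs1 was then compared on each diet. On the high-fat diet, 0 of the 34 genes passed in either direction by edgeR, where 0.0627% of all genes rose and 0.0488% fell. At an unadjusted p under 0.05, 8 were lower (23.5%, against 12.8% of all genes) and 1 was higher (2.94%, against 8.54%). DESeq2 called 2, Atg5 and Lamp2, both lower, and limma-voom with or without quality weights called 0. The shares of all genes called by these 2 tools are not given here. The genes with the smallest p were a membrane protein, a conjugation protein, a pump subunit and a protease, all lower, and high-fat control 3 held the highest level of each. Lamp2 had 485, 478, 518 and 587 CPM in high-fat knockouts, against 643, 621, 953 and 670.2 CPM in high-fat controls (log2 fold change -0.48 with SE 0.14, adjusted p = 0.109 by edgeR). Every knockout was below every control.

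Atg5 had 48.2, 47.4, 48.1 and 52.1 CPM in high-fat knockouts, against 53.4, 62.4, 128 and 67.7 CPM in high-fat controls (log2 fold change -0.67 with SE 0.20, adjusted p = 0.110 by edgeR). Atp6v0d1, a membrane-sector subunit of the proton pump, had 59.8, 50.0, 54.5 and 55.5 CPM in high-fat knockouts, against 65.9, 64.2, 89.3 and 64.9 CPM in high-fat controls (log2 fold change -0.37 with SE 0.12, adjusted p = 0.122 by edgeR). Ctsh had 174, 164, 192 and 188 CPM in high-fat knockouts, against 205, 199.5, 508 and 244 CPM in high-fat controls (log2 fold change -0.69 with SE 0.23, adjusted p = 0.123 by edgeR). In all 3 genes the groups did not overlap. The fold changes shrank without that liver, to -0.30 for Lamp2 (edgeR adjusted p = 0.298), -0.31 for Atg5 (0.297), -0.22 for Atp6v0d1 (0.373) and -0.25 for Ctsh (0.442).

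**Figure D4:**
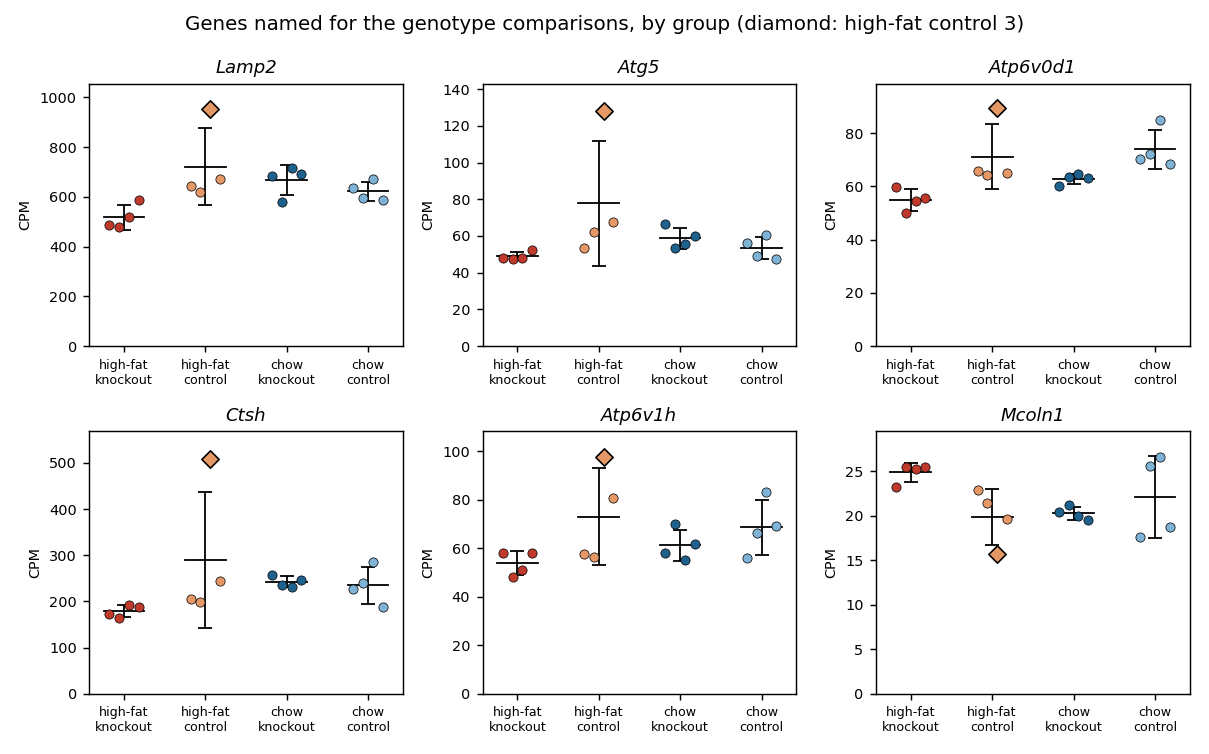
Points are single livers in CPM, with the group mean and SD (n = 4 each) as bars; the diamond marks high-fat control 3. For Lamp2, Atg5, Atp6v0d1 and Ctsh the high-fat knockouts lie below all high-fat controls and the diamond is the highest point of its group, while for Mcoln1 it is the lowest.

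The pump subunit Atp6v1h followed, with 58.0, 48.2, 51.2 and 58.1 CPM in high-fat knockouts, against 57.6, 56.3, 97.7 and 80.7 CPM in high-fat controls (log2 fold change -0.44 with SE 0.17, adjusted p = 0.153 by edgeR), and then Gabarapl1 (log2 fold change -0.37 with SE 0.17, adjusted p = 0.205 by edgeR). Both overlapped between groups. Mcoln1 was the only one of the 34 with every knockout above every control, at 23.2, 25.5, 25.2 and 25.5 CPM in high-fat knockouts, against 22.9, 21.5, 15.6 and 19.6 CPM in high-fat controls (log2 fold change 0.32 with SE 0.15, adjusted p = 0.226 by edgeR). Lipa, the acid lipase that releases cholesterol and fatty acids from lipoproteins (-0.38, edgeR adjusted p = 0.222), and Gla (-0.52, 0.229) were the other genes at an unadjusted p under 0.05, both lower and with overlap. Tfeb had a log2 fold change of 0.18 (edgeR adjusted p = 0.641), Lamp1 -0.22 (0.338), Sqstm1 0.10 (0.649) and Map1lc3b -0.36 (0.306).

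Over the 34 genes on the high-fat diet, the median log2 fold change of knockout over control was -0.13, against 0.026 over all genes, with 23 negative values. It was -0.019 with 17 negative values when high-fat control 3 was left out, and 0.012 with the unspliced share added to the model. Of the markers of other cell types, 1 passed in this comparison, the stellate cell collagen gene Col1a1. It had 66.5, 53.6, 56.0 and 16.5 CPM in high-fat knockouts, against 5.90, 7.96, 8.80 and 9.65 CPM in high-fat controls (log2 fold change 2.57 with SE 0.35, adjusted p = 0.00376 by edgeR). The 7 stellate cell markers summed to 476 to 723 CPM in high-fat knockouts and 414 to 502 CPM in high-fat controls. Of the stellate cell markers that did not pass, Lrat and Rgs5 were negative, and Des, Reln, Pdgfrb and Col3a1 positive. High-fat control 3 had the most macrophage marker RNA of its group, with 976 CPM, while the other 3 held 412 to 741 CPM. Its summed hepatocyte markers were 114791 CPM, against 77886 to 83098 CPM in the others. The part of these markers in the lysosomal values was not tested. Without overlap, 5 genes were lower (14.7%, against 7.78% of all genes) and 1 higher (2.94%, against 5.46%); the fifth lower gene was Atp6ap1, an accessory subunit of the pump (log2 fold change -0.15 with SE 0.11, adjusted p = 0.424 by edgeR).

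On chow, again 0 of the 34 passed in either direction by edgeR, DESeq2 or limma-voom, and of all genes 0% rose and 0.0139% fell. At an unadjusted p under 0.05, 1 was lower (2.94%, against 4.42% of all genes) and 0 were higher (against 5.1%). That gene was Naglu, which removes N-acetylglucosamine from heparan sulfate. It had 24.4, 16.4, 24.8 and 23.8 CPM in chow knockouts, against 24.97, 33.6, 28.8 and 29.4 CPM in chow controls (log2 fold change -0.39 with SE 0.16, adjusted p = 0.492 by edgeR). The knockouts lay below the controls, the highest of them just under the lowest control, and chow knockout 2 was far below the rest. Atp6v0d1 had 60.3, 63.6, 64.7 and 63.0 CPM in chow knockouts, against 70.3, 72.1, 84.8 and 68.4 CPM in chow controls (log2 fold change -0.23 with SE 0.12, adjusted p = 0.551 by edgeR). Ctsa, the carboxypeptidase that protects beta-galactosidase, had 134, 109, 119 and 134 CPM in chow knockouts, against 136, 136, 149 and 142 CPM in chow controls (log2 fold change -0.18 with SE 0.13, adjusted p = 0.667 by edgeR).

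Naglu, Atp6v0d1 and Ctsa were the 3 genes without overlap on chow (8.82%, against 2.9% of all genes), all lower in knockouts, and 0 were higher (against 3.44%). Atp6v1b2 (log2 fold change -0.24 with SE 0.13, adjusted p = 0.553 by edgeR), the aspartic protease Ctsd (-0.28, adjusted p = 0.581) and Psap (-0.20, 0.617) overlapped and did not pass, nor did Atp6ap1 (-0.17, 0.624). Tfeb had -0.27 (0.697), Lamp1 -0.19 (0.647), Sqstm1 -0.076 (0.861) and Map1lc3b -0.12 (0.868), as edgeR log2 fold changes with adjusted p. The median over the 34 was -0.13, against -0.0070 over all genes, with 23 negative values, and it was -0.032 with the unspliced share added to the model.

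**Figure D5:**
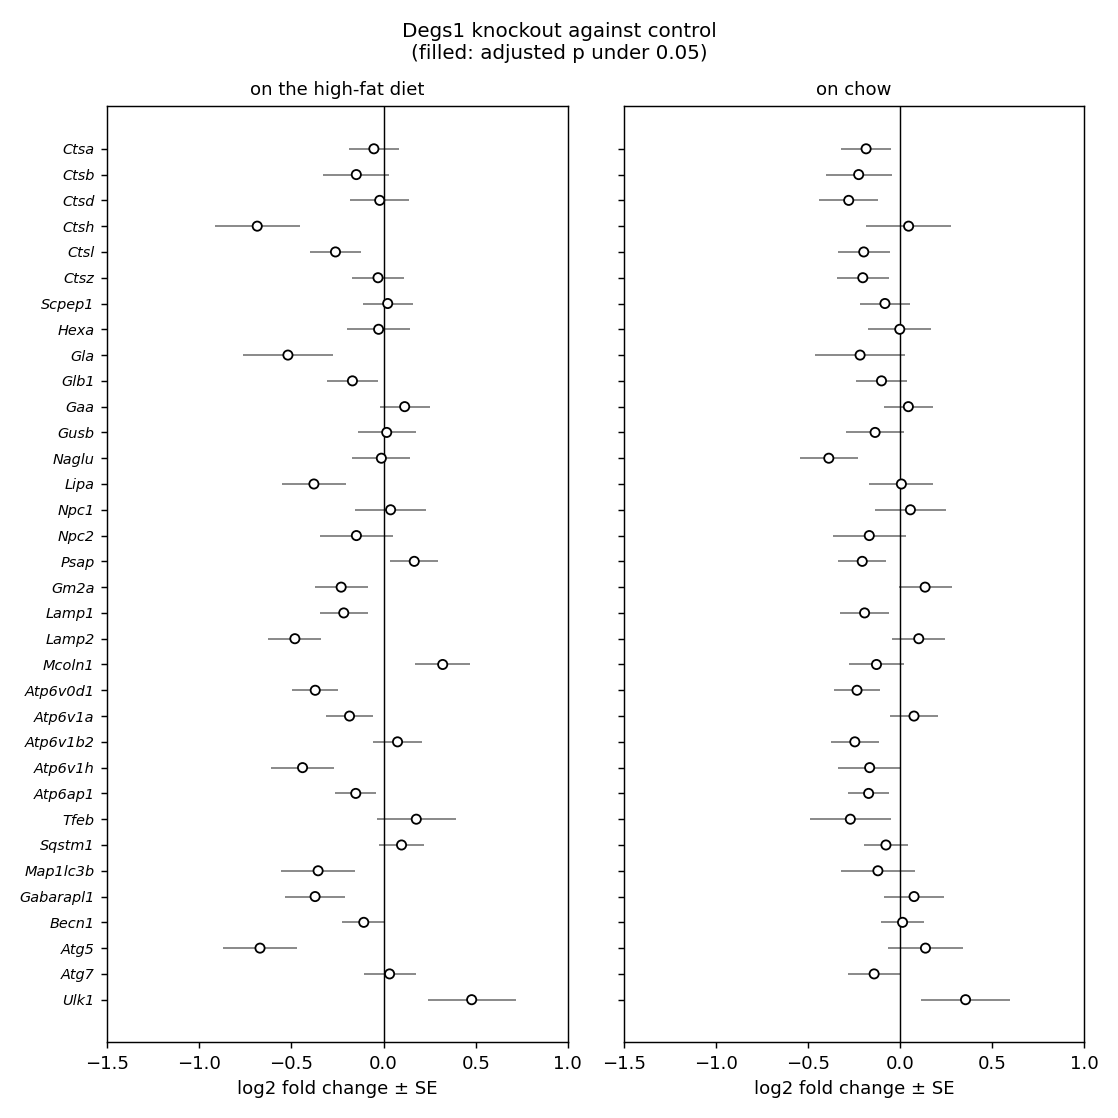
Log2 fold change of knockout over control with its standard error for the 34 genes, on the high-fat diet (left) and on chow (right); a filled point would have an edgeR adjusted p under 0.05. No point is filled, and 23 of the 34 lie left of 0 in each panel.

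Averaged over both diets, knockout minus control was negative for 29 of the 34 genes, with a median log2 fold change of -0.13, against 0.0082 over all genes. Leaving out high-fat control 3 gave -0.060, and adding the unspliced share to the model gave 0.0042 with 16 negative values. None of the 34 passed by edgeR, DESeq2 or limma-voom (of all genes, 0.0488% rose and 0.125% fell), and at an unadjusted p under 0.05, 5 were lower (14.7%, against 11.6% of all genes) and 1 was higher (2.94%, against 9.09%). By role, 7 of 7 proteases (median -0.15), 5 of 5 pump genes (-0.16), 5 of 6 glycosidases (-0.097) and 5 of 7 autophagy genes (-0.054) were negative. In lipid handling Npc1 (0.048) and among membrane proteins Mcoln1 (0.10) were positive and the rest negative. Tfeb was negative (-0.046). Atp6v0d1 had the smallest p (log2 fold change -0.30 with SE 0.088, adjusted p = 0.138 by edgeR), then Atp6v1h (-0.30, adjusted p = 0.185). Ulk1, the kinase that starts autophagy, was the one positive gene among the 6 at that unadjusted threshold (0.42, 0.192), with Ctsl (-0.23, 0.211), Lamp1 (-0.20, 0.225) and Gla (-0.37, 0.239) negative.

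The difference between the 2 diets in the knockout effect was tested as an interaction. No gene passed, among the 34 or among all genes (0%), by edgeR, and 0 of the 34 passed by DESeq2 or limma-voom. At an unadjusted p under 0.05, 3 of the 34 were negative (8.82%, against 5.89% of all genes) and 1 was positive (2.94%, against 5.37%). The negative ones were Lamp2 (log2 fold change -0.58 with SE 0.20, adjusted p = 0.302 by edgeR), Atg5 (-0.81, adjusted p = 0.307) and Ctsh (-0.73, 0.416). Mcoln1 was positive (0.45, 0.442). When high-fat control 3 was left out, the values were -0.42 for Lamp2, -0.46 for Atg5, -0.31 for Ctsh and 0.35 for Mcoln1.

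None of the 6 genes with a CLEAR core in the sequences above was called by edgeR in any comparison. With diet in knockouts their log2 fold changes were 0.18 for Ctsd, -0.073 for Ctsa, -0.19 for Atp6v0d1, -0.11 for Atp6v1a, 0.30 for Mcoln1 and -0.0069 for Gla. The signs were mixed. With genotype averaged over the diets, they were -0.15 for Ctsd, -0.12 for Ctsa, -0.30 for Atp6v0d1, -0.054 for Atp6v1a, 0.10 for Mcoln1 and -0.37 for Gla.

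Around these 34, 113 further genes of the lysosome, its trafficking and autophagy were examined, of which 112 passed the filter. With the high-fat diet in knockouts, 4 of the 112 rose (3.57%) and 3 fell (2.68%), below the shares of all genes. Leaving out 1 liver at a time gave 1 to 16 calls, 16 without high-fat control 3 and 1 without high-fat knockout 1, 2 or 3 or chow knockout 2. There were 2 calls with chow knockout 4 omitted, 3 with high-fat knockout 4 omitted, and 4 with high-fat control 2, chow knockout 3 or chow control 1 or 2 omitted. The 4 that rose were the lysosomal phospholipase Pla2g15 (log2 fold change 0.63 with SE 0.19, adjusted p = 0.0406 by edgeR), the tetraspanin Cd63 (1.33, adjusted p = 0.0451), the lysosomal cation channel Tpcn2 (0.89, 0.0346) and the chloride-proton exchanger Clcn7 (0.59, 0.00870). Cd63 had 7.23, 3.60, 2.61 and 1.80 CPM in high-fat knockouts, against 1.66, 1.48, 1.33 and 1.64 CPM in chow knockouts, so high-fat knockout 1 carries much of its mean. The 3 that fell were the sialic acid exporter Slc17a5 (-0.49, 0.0460), the Ulk1 partner Rb1cc1 (-0.44, 0.0440) and Prkaa2, a catalytic subunit of AMP kinase (-0.48, 0.0222).

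In controls, 1 of the 112 passed with diet, the sorting receptor Sort1 (log2 fold change -0.97 with SE 0.24, adjusted p = 0.0468 by edgeR), lower on the high-fat diet. It had 17.4, 21.1, 16.04 and 26.1 CPM in high-fat controls, against 39.3, 48.1, 18.9 and 52.4 CPM in chow controls, and the groups overlapped through chow control 3. Leaving out 1 liver at a time gave 0 to 5 calls of the 112, 5 without high-fat control 3. Of the 7 genes called in knockouts 0 were called in controls, where the share over all genes was 9.89%. With genotype, 0 of the 112 passed on either diet by edgeR. On the high-fat diet DESeq2 called 2 and limma-voom 1, and at an unadjusted p under 0.05, 5 of the 112 were higher (4.46%, against 8.54% of all genes) and 16 lower (14.3%, against 12.8%). On chow DESeq2 and limma-voom called 0, and at an unadjusted p under 0.05, 2 were higher (1.79%, against 5.1% of all genes) and 10 lower (8.93%, against 4.42%). The smallest p on the high-fat diet was that of Tpcn2, at 6.03, 4.73, 5.28 and 4.73 CPM in high-fat knockouts, against 2.58, 2.10, 1.56 and 2.30 CPM in high-fat controls (log2 fold change 1.28 with SE 0.26, adjusted p = 0.0584 by edgeR). On chow they were those of the acid sphingomyelinase Smpd1 (log2 fold change -0.42 with SE 0.12, adjusted p = 0.353 by edgeR) and Clcn7 (-0.43, 0.353).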

How the data were processed

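Total RNA from each liver was made into libraries with a ribosomal-depletion, strand-marking kit, per the labels' protocols. The authors deposited raw counts per Ensembl gene, 1 column per liver, and 0 columns matched no sample. Per the submitters' processing notes, STAR 2.5.4a, featureCounts 1.5.1 and DESeq2 were used with build GRCm38; their roles, strand setting and annotation release are not stated there. Groups came from the diet and genotype in the labels. Each liver counted as 1 animal, and no pair agreed within sampling noise.

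Symbols, exon lengths and positions came from GENCODE M21 (GRCm38). The filter was filterByExpr with a minimum count of 10 (14351 genes kept). Counts were scaled by TMM and fitted with edgeR 4.0.16 (R 4.3.3) over all 16 livers with a term per group, by quasi-likelihood F tests with Benjamini-Hochberg adjustment over all genes and a threshold of 0.05. The SE is the size of the log2 fold change divided by the square root of F. CPM uses TMM-scaled library sizes, and the log scale for single livers adds 1. Alternatives used DESeq2 1.42.0, limma 3.58.1, other scaling and filters, covariates, offsets and left-out livers. The code was tested on simulated counts with changes set in genes drawn from all those tested. Over the comparisons between groups, 46% to 51% of log2 changes of 1 were recovered and 81% to 85% of those of 2. Smaller changes were not simulated.

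The members, the pathway list and the marker lists were chosen with earlier results of these data known. The text names genes past the threshold, then up to 6 members and 4 other genes with the smallest p, and Tfeb, Lamp1, Sqstm1 and Map1lc3b in every comparison. Genes without overlap, and members at an unadjusted p under 0.05 for knockout on the high-fat diet, were added after their values were seen.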

Additional observations from a re-analysis of the deposited data

Results flagged for a closer look

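Of 136 sets of 4 livers (34 genes in 4 groups), 10 had a liver set far from the other 3 by Dixon's gap test, where chance flags about 1 in 20. In 5 of the 10 the liver was high-fat control 3, the library with the lowest unspliced share of its group. It had 281 CPM of Ctsd against 175 to 182 in the other high-fat controls, 508 CPM of Ctsh against 199.5 to 244, and 753 CPM of Lamp1 against 585 to 609. It also had 953 CPM of Lamp2 against 621 to 670.2 and 89.3 CPM of Atp6v0d1 against 64.2 to 65.9.

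The other flagged values were spread over 5 livers. High-fat control 2 had 23.7 CPM of Scpep1 against 31.6 to 33.0, and high-fat control 4 had 17.1 CPM of Glb1 against 12.6 to 13.1. Chow knockout 2 had 16.4 CPM of Naglu against 23.8 to 24.8. High-fat knockout 1 had 23.2 CPM of Mcoln1 against 25.2 to 25.5, and high-fat knockout 4 had 52.1 CPM of Atg5 against 47.4 to 48.2.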

How the results depend on the processing

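Signs of the Gm2a, Scpep1 and Gaa diet values held in all 27 alternatives of both diet comparisons, and no called value changed sign. Counts near the threshold moved. The share of all genes called in each alternative is not given here, so these counts are not particular to either list. With diet in knockouts, the 3 calls of 34 became 1 without a filter on low counts, 13 with limma-voom quality weights, 9 without high-fat control 3 and chow knockout 1 or with length and GC offsets, 6 with only the groups compared and 1 to 6 with a liver left out. The 7 of 112 other pathway genes became 25 with quality weights, 18 without those 2 livers, 16 with offsets, 15 with only the groups compared and 1 to 16 with a liver left out. With diet in controls, the 3 became 5 with quality weights, without the 2 livers or with the unspliced covariate, 0 with only the groups compared and 1 to 3 with a liver left out. The 1 other gene became 0 with upper-quartile factors, limma-voom, offsets or only the groups compared, 2 without a filter, 4 with DESeq2, 6 with quality weights, 7 without the 2 livers, 17 with the covariate and 0 to 5 with a liver left out. For knockout on the high-fat diet, the 0 of 34 became 2 without a filter (Atg5 and Ctsh) or with DESeq2. The 0 other genes became 4 without a filter, 2 with DESeq2, 1 with upper-quartile factors, the stricter filter or limma-voom with or without weights, and 0 to 1 with a liver left out. For the average over diets, 0 became 1 (Ulk1) without a filter, and for the other genes 4 without a filter, 2 with DESeq2, 1 with quality weights and 0 to 1 with a liver left out. For the interaction, the other genes gave 2 without a filter and 1 with DESeq2. On chow, knockout calls stayed at 0 in both lists. Causes were not tested. No paired analysis was possible because each liver has its own animal number. In the main fit, each p-value sets a difference against the spread between livers within groups, estimated over all 16 livers. At these depths the lowest count of any of the 34 genes was 53 (Tfeb).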
